A study of Mus musculus with 10 samples.

Results

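The genes described here are the selenoproteins, the enzymes and factors that make and insert selenocysteine, and a few relatives, 33 listed genes. They were measured in whole lung from female mice of the C57BL/6 strain. A gene entered if a probe set of the array carried its symbol and no other gene's symbol in the platform annotation. Of the 33 genes 32 had such a probe set, out of 18194 genes on the array, and 1, the deiodinase Dio3, had none. One group of 5 mice drank water with arsenic at 50 ppm for 12 weeks from 8 weeks of age, and 5 control mice drank deionized water without it. The series text calls the compound arsenate and the sample labels call it arsenite, so it is called arsenic here. Each animal gave 1 Affymetrix array, and the deposited values are log2 expression per probe set. All titles of arsenic animals carry 20 as their first number and all titles of control animals carry 4, and anything that number stands for cannot be told apart from the exposure.

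Selenocysteine is inserted at UGA codons, which otherwise end translation. The transcript carries a SECIS element, a hairpin that is bound by SECISBP2, and the elongation factor EEFSEC brings in a dedicated tRNA whose serine has been converted to selenocysteine by the enzymes PSTK and SEPSECS with selenophosphate from SEPHS2. Most selenoproteins are redox enzymes: glutathione peroxidases remove peroxides, thioredoxin reductases keep thioredoxin reduced and deiodinases act on thyroid hormone. Arsenic and selenium are long known to counter each other's toxicity in animals, and trivalent arsenicals inhibit thioredoxin reductase as a protein. In selenium-deficient rodents the transcripts of Gpx1, Selenow and Selenoh are known to fall, so transcript levels of such genes are of interest in exposed tissue.

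No transcript of this system passed the test between arsenic and control lungs after adjustment. Among the 30 genes that could be tested, 0 were higher and 0 were lower at an adjusted p of 0.05 (limma with Benjamini-Hochberg adjustment over 11333 genes), where 0.476% of all genes tested passed. The log2 difference, arsenic minus control, ran from -0.48 for Scly to 0.35 for Selenoo, with a median of 0.08 over the 30 genes and 0.06 over all genes tested. It was above 0 in 23 of the 30 (76.7%), against 63.2% of all genes. At an unadjusted p of 0.05 there were 3 higher genes (Selenoo, Selenbp1 and Selenos), against 10.6% of all genes, and 1 lower gene (Scly), against 5.13%. The 95% interval of the difference lay within 0.5 log2 units of 0 for 25 of the 30 (83.3%), against 66.2% of all genes. It lay within 1 log2 unit for all 30, against 94.6% of all genes. In whole lung, fewer cells of a type and less RNA per cell cannot be told apart. The 2 genes on the array that were not tested, Dio1 and Dio2, stayed below the median of the table, 4.20, on every array.

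**Figure D1:**
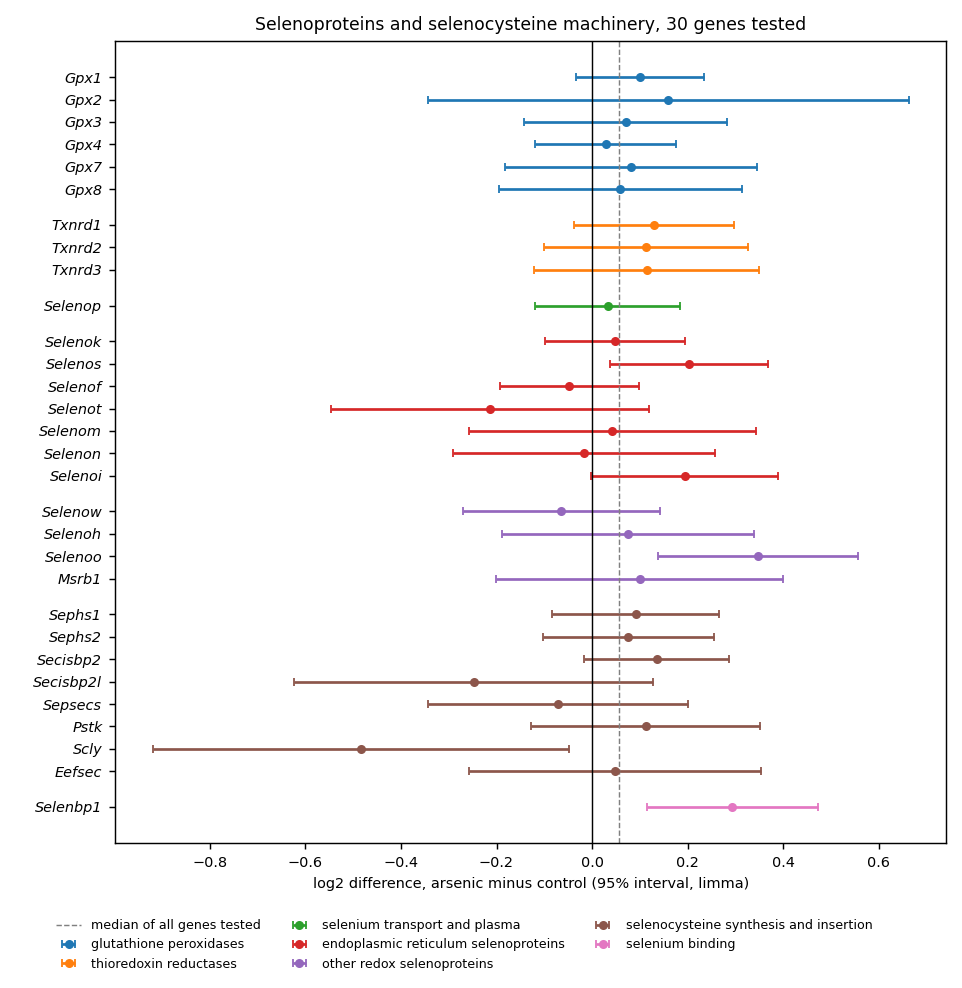
Log2 difference, arsenic minus control, for the 30 genes tested, grouped by role; points are limma estimates (5 animals in each group), bars are 95% intervals and the dashed line is the median of all genes tested, 0.06. Most intervals cross 0, and those of Selenoo, Selenbp1, Selenos and Scly, which did not pass after adjustment, do not.

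Array medians lay between 4.11 and 4.26, and pairs of arrays correlated at 0.990 to 0.997 over probe sets. The medians were 4.21, 4.11, 4.15, 4.23 and 4.14 in arsenic animals 1 to 5. They were 4.26, 4.19, 4.24, 4.26 and 4.21 in control animals 1 to 5. Arsenic animals 2, 3 and 5 were thus below all controls. As a check of the lung label, 7 of 7 alveolar type 2 markers on the array passed the filter on dim values (above 4.20 on at least 5 arrays), at a mean level of 14.09 to 14.33 in arsenic lungs and 14.15 to 14.30 in control lungs. Other marker sets varied more between animals. Airway secretory markers were at 12.01 in arsenic animal 5 and 11.84 in control animal 2, against 14.35 to 15.17 in the others. Adipocyte markers ran from 4.94 to 10.25 in arsenic lungs and from 5.13 to 8.88 in control lungs. Heart and skeletal muscle markers ran from 7.33 to 10.33 and from 7.81 to 10.15. The part of these cells in the results below was not tested. Of 27 kidney markers on the array 11 passed the filter and 16, among them Slc12a1, Slc12a3, Aqp2 and Nphs1, did not. The mean log2 level of the 11 was 7.61, 7.38, 7.41, 8.79 and 6.97 in arsenic animals 1 to 5, against 5.17, 6.61, 6.88, 7.75 and 6.32 in control animals 1 to 5. It was 1.09 higher with arsenic (two-sided exact permutation p = 0.0714, n = 5 each), and leaving out 1 array gave 0.74 (without control animal 1, exact permutation p = 0.135) to 1.39 (without control animal 4, exact permutation p = 0.0159). Without arsenic animal 4 it was 0.80 higher (exact permutation p = 0.143). The summed level of the 11 ran from 11.55 to 13.98 in arsenic lungs and from 9.43 to 12.73 in control lungs on the log2 scale. The part of kidney transcripts in the results below was not tested beyond the values given with this level as a covariate.

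3 promoter windows are shown because Selenoo and Selenos are selenoproteins with the smallest p-values of the family, and Txnrd1 is a textbook target of the oxidative-stress factor NRF2. They are RefSeq sequences of GRCm38.p6 on the plus strand, each from 250 bases before to 50 bases after an annotated start. In the Selenos window, chr7:66079399-66079698, capitals mark CCACG, the part of the ER stress response element that is bound under ER stress. In the Selenoo window, chr15:89088788-89089087, they mark CCAAT, the other end of that element. In the 1 of 3 Txnrd1 windows that matched, chr10:82858956-82859255, they mark TGACNNNGC, the core of the antioxidant response element, here on the minus strand.
Selenos: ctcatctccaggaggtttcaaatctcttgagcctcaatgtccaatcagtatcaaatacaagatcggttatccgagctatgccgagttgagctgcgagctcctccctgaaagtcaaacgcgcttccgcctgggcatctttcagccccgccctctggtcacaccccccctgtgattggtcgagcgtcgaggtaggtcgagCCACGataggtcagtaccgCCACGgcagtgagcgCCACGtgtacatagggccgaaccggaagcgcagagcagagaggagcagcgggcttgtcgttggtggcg
Selenoo: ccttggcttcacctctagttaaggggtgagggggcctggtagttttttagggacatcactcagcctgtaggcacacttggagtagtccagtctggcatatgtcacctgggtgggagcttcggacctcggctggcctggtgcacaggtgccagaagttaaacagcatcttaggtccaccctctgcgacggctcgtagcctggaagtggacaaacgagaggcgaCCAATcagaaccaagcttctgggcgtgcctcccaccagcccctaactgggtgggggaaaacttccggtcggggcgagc
Txnrd1: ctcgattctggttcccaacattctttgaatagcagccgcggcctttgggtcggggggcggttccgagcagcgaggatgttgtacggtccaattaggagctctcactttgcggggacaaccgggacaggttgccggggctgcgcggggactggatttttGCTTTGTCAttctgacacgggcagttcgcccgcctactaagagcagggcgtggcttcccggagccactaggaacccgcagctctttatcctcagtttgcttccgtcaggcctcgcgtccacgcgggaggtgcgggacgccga
Motifs were searched on both strands of 40 windows of 32 genes, Sepsecs having none in the table. The CCACG motif occurred 3 times in the Selenos window, and 3.05% of all 32851 windows held at least 3 copies; among the other genes Txnrd3 did. At least 1 copy of CCACG was in 17 of the 40 windows, against 32.8% of all windows. At least 1 copy of CCAAT was in 18 of the 40, against 37.4% of all. The Selenos window was among those 18, with its CCAAT left in lower case above. The full ER stress response element, which has those 2 motifs as its ends, was in 0 of the 40 windows and in 0.119% of all. The antioxidant core was in the windows of Txnrd1 and Selenok, and in 12.4% of all windows. These matches describe the letters only.

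Glutathione peroxidases use glutathione to reduce peroxides, and 0 of the 6 passed. Gpx1, the cytosolic enzyme, was at 13.72, 13.87, 13.82, 13.76 and 13.81 in arsenic lungs and at 13.69, 13.68, 13.74, 13.65 and 13.72 in control lungs (log2). The arsenic values lay mostly above the control values but overlapped them. The difference was 0.10 (SE 0.06, limma adjusted p = 0.429), a ratio of 1.07 with a 95% interval of 0.977 to 1.18. Gpx4, which protects membrane lipids and restrains ferroptosis, was at 13.58, 13.69, 13.63, 13.57 and 13.73 in arsenic lungs and at 13.67, 13.67, 13.58, 13.51 and 13.64 in control lungs. Its groups overlapped through most of their range, with a ratio of 1.02 (0.921 to 1.13, limma adjusted p = 0.852).

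Gpx3, the secreted plasma enzyme, is known as an abundant transcript of kidney tubules. It was at 14.08, 14.14, 13.85, 14.26 and 14.20 in arsenic lungs and at 14.03, 14.13, 14.18, 13.84 and 14.00 in control lungs. The highest arsenic value was that of animal 4, whose kidney level was also the highest, while control animal 4, with the highest kidney level of the controls, had the lowest control value. The Gpx3 difference was 0.07 (SE 0.10, limma adjusted p = 0.724), and 0.07 with the kidney level as a covariate. It was 0.02 without control animal 4 and 0.13 without arsenic animal 3. Gpx2, the epithelial form, varied most of the family between animals, at 9.89 ± 0.43 in arsenic lungs and 9.73 ± 0.38 in control lungs (SD, n = 5 each). Its difference of 0.16 was 0.01 without arsenic animal 3 and 0.31 without arsenic animal 5. The lowest Gpx2 values were 9.29 in arsenic animal 5 and 9.30 in control animal 2, the animals with low airway secretory markers. Control animal 3 was at 9.34 with an airway secretory level of 14.35. A link was not tested. Gpx7 and Gpx8, which sit in the endoplasmic reticulum and carry cysteine in place of selenocysteine, had differences of 0.08 and 0.06.

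Thioredoxin reductases keep thioredoxin in its reduced form, and 0 of the 3 passed. Txnrd1, the cytosolic enzyme, was at 10.72, 10.92, 10.90, 10.76 and 10.71 in arsenic lungs and at 10.73, 10.63, 10.54, 10.66 and 10.79 in control lungs. Arsenic animals 2 and 3 were above all controls, and the other values overlapped. The ratio was 1.09, with a 95% interval of 0.974 to 1.23 (limma adjusted p = 0.419). Txnrd2, the mitochondrial enzyme, was at 7.49, 7.70, 7.49, 7.39 and 7.83 in arsenic lungs and at 7.41, 7.49, 7.35, 7.47 and 7.63 in control lungs, with overlapping groups and a ratio of 1.08 (0.932 to 1.25). Its 4 kept probe sets had differences of 0.09 to 0.38, all above 0. Txnrd3, known for its role in testis, had a difference of 0.11.

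Selenop, the plasma protein that carries selenium from liver to other tissues, was at 15.09, 14.88, 14.97, 14.99 and 15.08 in arsenic lungs and at 14.88, 14.95, 15.06, 14.99 and 14.98 in control lungs. These groups overlapped almost fully, with a ratio of 1.02 and a 95% interval of 0.921 to 1.14 (limma adjusted p = 0.830). Deiodinases convert thyroid hormone between its active and inactive forms. Dio1, also known as a liver and kidney enzyme, was at 2.42, 3.28, 3.04, 2.95 and 2.33 in arsenic lungs and at 2.40, 2.09, 2.37, 2.59 and 2.50 in control lungs, dim values that were not tested. Dio2, which makes active hormone within tissues, was at 2.51, 2.51, 2.50, 2.52 and 2.46 in arsenic lungs and at 2.53, 2.49, 2.52, 2.57 and 2.51 in control lungs for its brightest probe set, with overlapping groups.

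Selenoproteins of the endoplasmic reticulum take part in protein quality control and calcium handling, and 0 of the 7 passed. Selenos, a membrane protein that helps move misfolded proteins out of the reticulum, was at 12.63, 12.78, 12.64, 12.61 and 12.60 in arsenic lungs and at 12.47, 12.42, 12.33, 12.62 and 12.40 in control lungs. Control animal 4 alone reached into the arsenic range. The difference was 0.20 (SE 0.07, limma adjusted p = 0.252), a ratio of 1.15 with a 95% interval of 1.03 to 1.29. Its other probe sets separated the groups fully. One was at 12.46, 12.59, 12.42, 12.42 and 12.42 in arsenic lungs and at 12.23, 12.23, 12.17, 12.33 and 12.33 in control lungs. The other was at 9.10, 9.29, 8.97, 8.97 and 9.06 in arsenic lungs and at 8.72, 8.64, 8.53, 8.95 and 8.88 in control lungs, so that the gap between the groups was small beside the spread within them. With every kept probe set tested on its own their differences were 0.20 and 0.33 (limma adjusted p = 0.194 and 0.174). Non-overlap in the higher direction held for 2.18% of all kept probe sets. In the lower direction it held for 1.67%. The probe sets read the same animals, so they are not independent replicates.

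Selenot, a thioredoxin-like oxidoreductase, lay in the other direction, at 11.11, 10.55, 10.84, 11.01 and 10.74 in arsenic lungs and at 10.93, 10.78, 11.24, 11.48 and 10.87 in control lungs. The groups overlapped, with a difference of -0.21 (SE 0.15, limma adjusted p = 0.490) that was -0.11 without control animal 4 and -0.43 with the kidney level as a covariate. Selenoi, which makes the membrane lipid phosphatidylethanolamine, was at 8.18, 8.07, 8.21, 8.10 and 8.41 in arsenic lungs and at 8.06, 7.97, 7.99, 8.16 and 7.83 in control lungs. The difference was 0.19 (SE 0.09, limma adjusted p = 0.325), but its other kept probe sets gave -0.20 and 0.31. Selenok, a partner of the palmitoyltransferase ZDHHC6, had 0.05, Selenom 0.04, Selenon, whose loss causes muscle disease, -0.02, and Selenof, a partner of the folding sensor UGGT1, -0.05. The last 2 were 0.05 and 0.02 with arrays centred on their medians.

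Among the 4 other redox selenoproteins 0 passed, and they held the largest difference above 0 of the 30 genes. Selenoo, a mitochondrial pseudokinase that attaches AMP to proteins, was at 8.93, 9.32, 9.22, 8.94 and 9.18 in arsenic lungs and at 8.80, 8.82, 8.67, 8.67 and 8.90 in control lungs. It was the only one of the 30 whose groups did not overlap, which held for 3.63% of all genes (2.82% higher and 0.803% lower with arsenic). The lowest arsenic and highest control values were 8.93 and 8.90. The difference was 0.35 (SE 0.10, limma adjusted p = 0.167), a ratio of 1.27 with a log2 interval of 0.14 to 0.56, and ran from 0.30 to 0.39 when 1 array was left out. Selenow, a small glutathione-binding protein abundant in muscle, was at 12.64, 12.68, 12.67, 12.58 and 12.59 in arsenic lungs and at 12.58, 12.76, 12.80, 12.43 and 12.92 in control lungs. The control values spread on both sides of the arsenic values, with a difference of -0.06 (limma adjusted p = 0.741); the other kept probe set gave 0.13. Selenoh, a nuclear redox protein, had 0.08, 0.28 in the fit with the kidney covariate and 0.01 without control animal 3. Msrb1, which repairs oxidised methionine, had 0.10, which was 0.04 without arsenic animal 5 and 0.20 without control animal 2.

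Transcripts listed as sensitive to selenium supply (Gpx1, Selenow, Selenoh, Msrb1, Gpx3 and Selenop) had a median difference of 0.07, against 0.06 over all genes, and 0 of the 6 passed. Their differences ran from -0.06 to 0.10. All 6 intervals lay within 0.5 log2 units of 0.

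**Figure D2:**
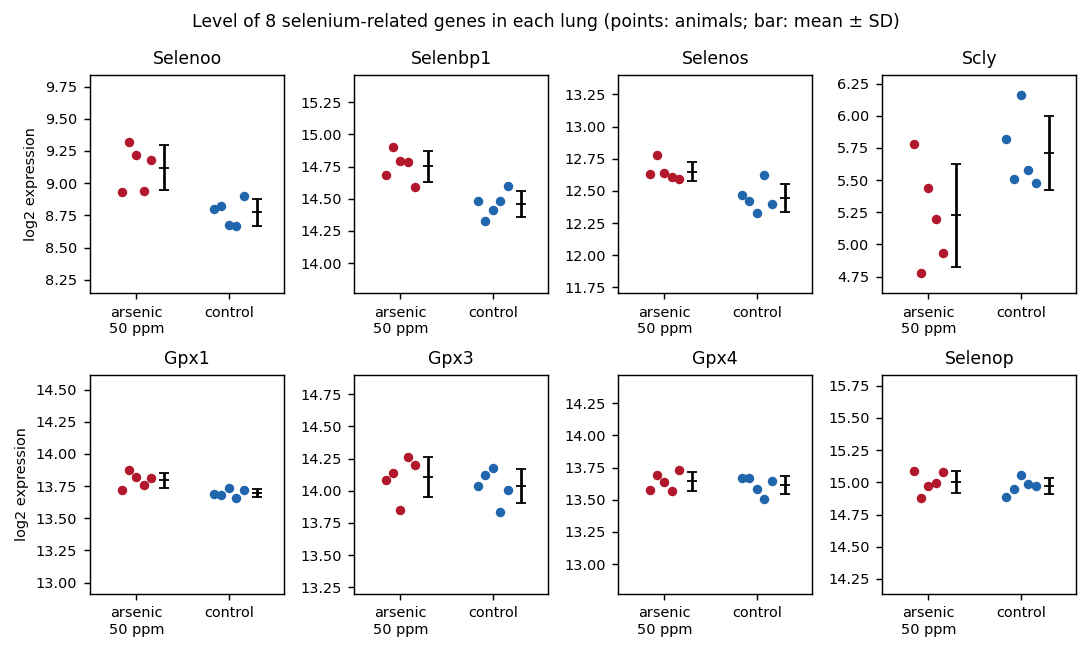
Log2 expression in each lung for 8 genes, arsenic 50 ppm (red) left of control (blue); points are animals, bars are mean ± SD (n = 5 each), and every panel spans the same range of log2 units. Selenoo separates the groups by a small gap, Selenbp1, Selenos and Scly overlap at 1 end, and Gpx1, Gpx3, Gpx4 and Selenop overlap.

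The machinery of selenocysteine synthesis and insertion held 8 genes, of which 0 passed. Scly, the lyase that recovers selenium from selenocysteine, was at 5.78, 4.78, 5.44, 5.19 and 4.94 in arsenic lungs and at 5.82, 5.51, 6.16, 5.58 and 5.48 in control lungs. Arsenic animals 2, 3, 4 and 5 were below all controls and animal 1 was within their range. The difference was -0.48 (SE 0.20, limma adjusted p = 0.282), a ratio of 0.715 with a 95% interval of 0.529 to 0.966. A second kept probe set of Scly ran the other way, at 4.38, 5.43, 4.71, 4.37 and 4.71 in arsenic lungs and 4.21, 4.79, 4.37, 4.37 and 4.49 in control lungs, a difference of 0.27. Both were dim, so the direction for Scly was not settled.

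Secisbp2, the protein that binds SECIS elements, was at 8.68, 8.79, 8.63, 8.57 and 8.75 in arsenic lungs and at 8.57, 8.59, 8.50, 8.47 and 8.61 in control lungs. Arsenic animal 4 was below control animals 1, 2 and 5, and the other arsenic animals were above all controls. The difference was 0.14 with a 95% interval of -0.02 to 0.29 (limma adjusted p = 0.364), and 0.21 with the kidney level as a covariate. Its paralogue Secisbp2l was at 11.98, 11.63, 11.78, 12.35 and 11.57 in arsenic lungs and at 12.17, 11.95, 12.41, 12.29 and 11.72 in control lungs. It had a difference of -0.25 (SE 0.17, limma adjusted p = 0.479), -0.38 by its other probe set and -0.48 with the kidney level as a covariate. Sephs2, the selenophosphate synthetase that is itself a selenoprotein, was at 10.33, 10.57, 10.39, 10.39 and 10.59 in arsenic lungs and at 10.41, 10.49, 10.28, 10.27 and 10.44 in control lungs, with a ratio of 1.05 (0.931 to 1.19). Sephs1, a relative without selenocysteine, had a difference of 0.09, the kinase Pstk 0.11, the synthase Sepsecs -0.07 and the elongation factor Eefsec 0.05.

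Selenbp1, a methanethiol oxidase that binds selenium without being a selenoprotein, was at 14.69, 14.91, 14.79, 14.79 and 14.59 in arsenic lungs and at 14.48, 14.32, 14.41, 14.48 and 14.60 in control lungs. Arsenic animal 5 and control animal 5 were the pair that overlapped. The difference was 0.29 (SE 0.08, limma adjusted p = 0.167), a ratio of 1.23 with a 95% interval of 1.08 to 1.39. A second probe set gave 0.23, at 14.27, 14.45, 14.27, 14.28 and 14.17 in arsenic lungs and 14.04, 14.01, 13.99, 14.03 and 14.19 in control lungs, with the same animals overlapping. With the kidney level as a covariate Selenbp1 had 0.29 (limma adjusted p = 0.166), Selenoo 0.45, Selenos 0.18 and Scly -0.50. In that fit 0 of the 30 genes passed, as did 0 of all genes (limma). An unadjusted p under 0.05 held for 6 of the 30 (Selenoo, Selenot, Selenbp1, Secisbp2l, Secisbp2 and Selenoh), against 23.0% of all genes. Selenos and Scly were no longer among them (limma unadjusted p = 0.0885 and 0.0778).

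The spread between animals of a group was larger than the median group difference. The SD between animals, pooled over the groups, had a median of 0.15 log2 units over the 30 genes and 0.19 over all genes tested. The median group difference of the 30 was 0.08. It was taken with sign, over 23 genes above 0 and 7 below, so it is not a typical size. When each array was left out in turn, the difference of 21 of the 30 genes moved by more than 1.5 times at least once. The other 9 were Gpx1, Scly, Secisbp2, Secisbp2l, Selenbp1, Selenoi, Selenoo, Selenos and Txnrd1. Among arsenic animals, number 4 had the lowest value for 14 of the 30 genes and number 5 the highest for 13. Among controls, number 4 was lowest for 10 and number 5 highest for 10. The same counts over all genes were not made, so these cannot be read as particular to the 30 genes.

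**Figure D3:**
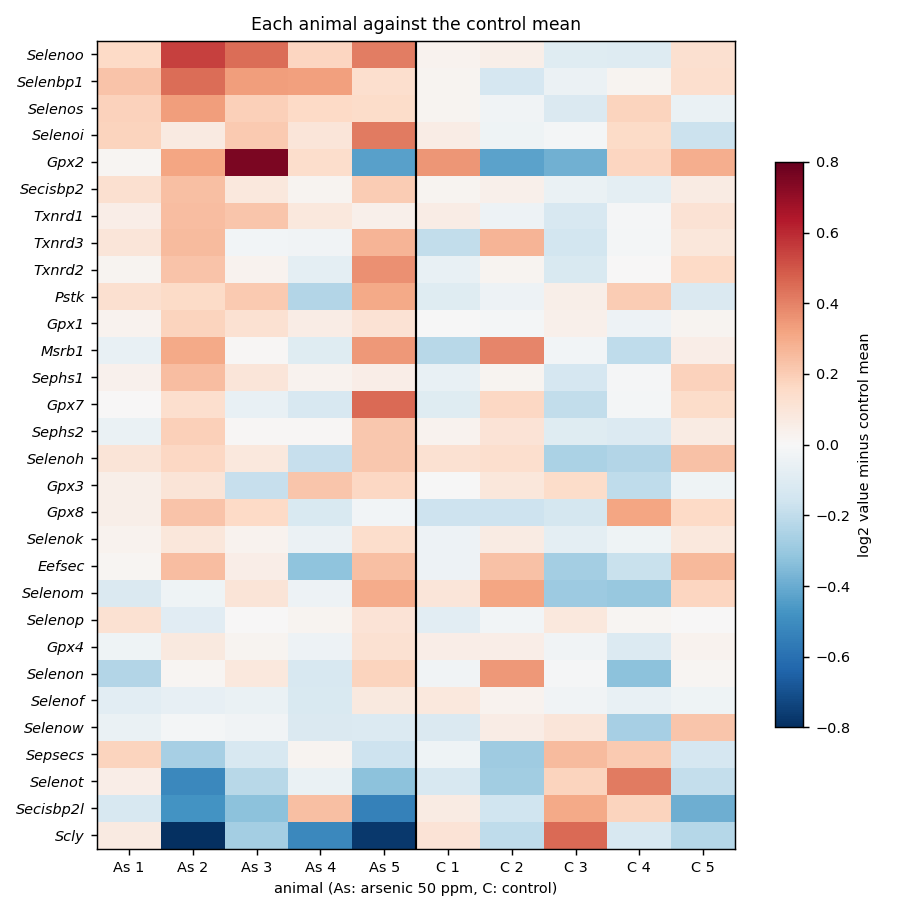
Log2 value of each gene in each animal minus the control mean of that gene, with arsenic animals (As 1 to 5) left of control animals (C 1 to 5) genes ordered by their group difference, and colours that end at 0.8 log2 units from that mean. All 5 arsenic animals are above the control mean for 8 of the 30 genes (Selenoo, Selenbp1, Selenos, Selenoi, Secisbp2, Txnrd1, Gpx1 and Sephs1). The same count over all genes was not made, and 63.2% of all genes had a group difference above 0, so the 8 describe the picture only. Selenot and Secisbp2l are lowest in arsenic animals 2 and 5.

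Probe sets of 1 gene gave a further check of direction. 15 of the 30 genes had several kept probe sets, and in 11 of these all had the same sign, a share of 73.3%, against 71.0% of the 5010 such genes over the array. The exceptions were Scly, Selenoi, Selenow and Sephs1. Of the 53 kept probe sets of the 30 genes, 42 had a difference above 0. The share above 0 over all kept probe sets was not counted, so the 42 are a description only. The median difference was 0.09 over the 53 and 0.03 over all kept probe sets. When every probe set was tested 0 of the 53 passed, and 8 had an unadjusted p under 0.05, against 17.2% of all kept probe sets.

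**Figure D4:**
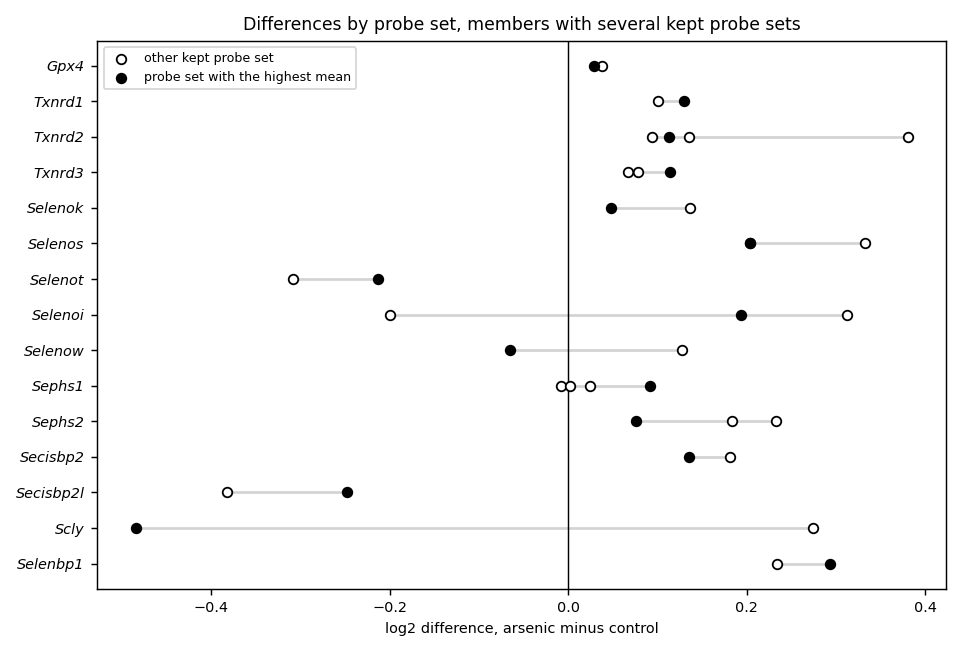
Log2 difference, arsenic minus control, of each kept probe set for the 15 genes with several, filled for the probe set with the highest mean and open for the others. The sets of Selenos (0.20 to 0.33) and Selenbp1 (0.23 and 0.29) lie above 0. So do those of Gpx4, Txnrd1, Txnrd2, Txnrd3, Selenok, Secisbp2 and Sephs2. Those of Scly lie on opposite sides of 0.

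Partner genes lay outside the 33 and were listed by role. Of 19 listed genes of the thioredoxin system and its clients, 14 were tested. The peroxiredoxins Prdx1, Prdx5 and Prdx6 were not, nor were Glrx3 and Nme9, so the counts here leave them out. All 14 had a difference above 0, against 63.2% of all genes. Of these 0 passed, and their median was 0.18, against 0.06 over all genes. Txnip, which binds thioredoxin and blocks it, was at 14.79, 14.76, 14.69, 14.87 and 14.82 in arsenic lungs and at 14.28, 14.50, 14.29, 14.29 and 14.59 in control lungs. These groups did not overlap, which held for 3.63% of all genes (2.82% higher with arsenic). The difference was 0.40 (SE 0.08, limma adjusted p = 0.0855). The methionine sulfoxide reductase Msra had 0.24, the mitochondrial peroxiredoxin Prdx3 0.19 and the glutaredoxin Glrx2 0.19.

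Of 7 tested genes of glutathione supply, 0 passed. Chac1, an enzyme that breaks down glutathione, was at 6.60, 6.86, 6.37, 6.14 and 6.99 in arsenic lungs and at 6.06, 5.97, 5.85, 5.55 and 5.35 in control lungs. The groups did not overlap, which held for 3.63% of all genes, and the difference was 0.84 (SE 0.18, limma adjusted p = 0.0970). The amino acid transporter subunit Slc3a2 had 0.14, the glutathione synthetase Gss 0.19 and the cyclotransferase Ggct 0.15. Of 6 tested genes of selenium uptake and recycling 0 passed. Cth, a lyase of the pathway that turns methionine and selenomethionine into cysteine and selenocysteine, was at 9.16, 9.78, 9.28, 9.25 and 9.11 in arsenic lungs and at 8.78, 8.36, 8.63, 8.96 and 8.67 in control lungs. It too did not overlap, with a difference of 0.64 (SE 0.14, limma adjusted p = 0.106). Lrp1, a receptor of the family that takes up Selenop, had 0.20, and the methyltransferases Tpmt and Inmt had 0.10 and 0.04.

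Of 9 tested genes that modify the selenocysteine tRNA or bind selenoprotein transcripts 0 passed, and they differed in both directions. Nucleolin (Ncl), an RNA-binding protein of the nucleolus, had -0.65 (SE 0.23, limma adjusted p = 0.235), the tRNA methyltransferase Alkbh8 -0.46, the exportin Xpo1 -0.46 and the tRNA-modifying enzyme Trit1 0.27. Of 8 tested partners in the endoplasmic reticulum 0 passed, with the ubiquitin ligase Syvn1 at 0.26, its adaptor Sel1l at -0.17, and the derlins Derl1 and Derl2, partners of Selenos, at 0.14 and 0.15. Of 5 tested genes of thyroid hormone handling 0 passed, with the transporter Slc16a10 at 0.46 (SE 0.13, limma adjusted p = 0.183) and the hormone-responsive factor Klf9 at 0.25. The hormone-responsive gene Thrsp had 0.56 (SE 0.88) and the receptor Thra had -0.05.

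**Figure D5:**
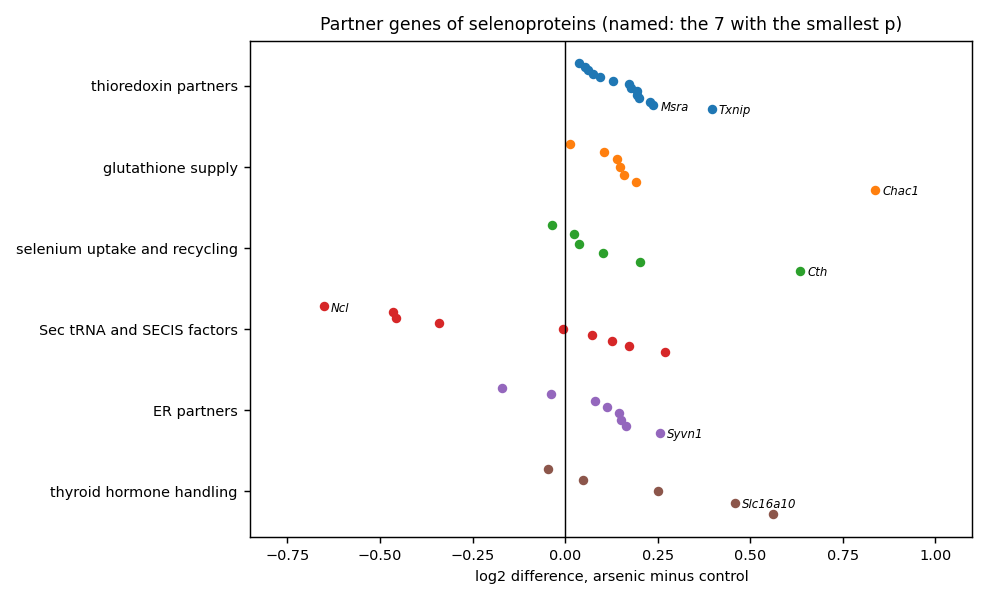
Log2 difference, arsenic minus control, of each tested partner gene by list, with the 7 genes of smallest p named. All 14 thioredoxin partners tested lie above 0, against 63.2% of all genes. Chac1, Cth and Txnip are the 3 whose groups did not overlap, which held for 3.63% of all genes.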

How the data were processed

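Total RNA of 10 lungs, 1 animal per array, was hybridised to Mouse430_2 arrays. The authors deposited log2 values for 45101 probe sets, made with GCRMA per the submitters' processing notes; no version is given in the sources used here. The log2 scale was read from the range of the values, 0.619 to 16.3. Groups and replicate numbers came from the titles, and each animal has its own number in the labels.

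Probe sets with 1 symbol in the platform annotation (34958) named genes. A probe set was kept if it exceeded the table median, 4.20, on at least 5 arrays (22552 kept). Where a gene had several kept probe sets, the brightest on average stood for it, which left 11333 genes. All 30 members kept in this way exceeded the median on all 10 arrays. The arsenic and control arrays were fitted by limma 3.58.1 (lmFit, then eBayes; R 4.3.3) with group as the only term. Benjamini-Hochberg adjustment covered all genes, with a threshold of 0.05. The fit was tested on simulated data. Intervals are the 95% intervals of the fit. The number of arrays limits the precision. Figures were drawn with matplotlib 3.10.9.

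Members, gene lists and tests were chosen with earlier results of these data known. Values in every array were given for the 10 tested members with the smallest p, for Selenop, Gpx1, Gpx3, Gpx4, Txnrd1, Txnrd2, Selenow, Sephs2, Secisbp2 and the deiodinases, and, from each partner list, up to 4 genes with the smallest p were named. Alternatives were other filters, probe set rules, normalizations, variance models, array weights, a replicate block, the kidney level as a covariate, a looser threshold and leaving out each array. The same replicate numbers occur in both groups, but the deviations of same-numbered animals correlated at -0.33 to 0.25, so the numbers were not taken as pairs.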

Additional observations from a re-analysis of the deposited data

Results flagged for a closer look

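Over 60 groups of 5 values (30 genes in both groups), 1 held a value far from the rest by Dixon's criterion, where chance gives about 1 in 20 groups. It was Selenos in arsenic animal 2, at 12.78, against 12.60 to 12.64 in the other arsenic animals. Without that animal the Selenos difference was 0.17.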

How the results depend on the processing

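Under all 24 alternatives 0 of the members passed, the lowest adjusted p being 0.0960, for Selenbp1 with trended eBayes. Their median difference stayed above 0, between 0.041 and 0.109 with 1 array left out and up to 0.14, with median centring, where that of all genes was 0.12. It was below that of all genes with quantile normalization (0.062 against 0.064) and without arsenic 5 (0.041 against 0.052). The count of members at an unadjusted p of 0.05, 4 as reported, was 7 without a filter (12.8% of all genes) and 8 among probe sets tested singly, and 2 (without control 3; 10.7% of all genes) to 7 (without arsenic 4; 19.3%) with 1 array left out. Members not overlapping, 1 as reported, numbered 2 with the mean of all kept probe sets, with the most variable probe set and with quantile normalization, 3 among single probe sets, 4 with median centring, and 1 to 3 with 1 array left out. The share of all genes or probe sets was 3.41%, 3.84%, 3.68%, 3.85% and 4.25% in those settings, and 3.99% to 6.47% with 1 array left out. Signs turned for Gpx4 with array weights (-0.0023), for Selenof (0.015, 0.022) and Selenon (0.046, 0.11) with median centring and the kidney covariate, and for Selenow with the mean of its probe sets (0.031) or the most variable one (0.13). With 1 array left out Gpx7 ran from -0.011 to 0.13, Selenom from -0.033 to 0.12, Selenon from -0.099 to 0.069 and Eefsec from -0.020 to 0.14. The cause of these shifts was not tested.

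Over all genes 54 passed, against 19 without a filter, 99 among single probe sets, 108 at an adjusted p of 0.1, 5 with the replicate block, 0 with the kidney covariate, and 9 (without arsenic 2) to 41 (without arsenic 1) with 1 array left out. With the replicate block 4 members had an unadjusted p under 0.05 (18.5% of all genes) and 0 passed. No arsenic animal correlated best with the control of its number. The kidney level difference ran from 0.74 (without control 1) to 1.39 (without control 4) with 1 array left out.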
